A study of Mus musculus with 32 samples.

Results

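The comparison set 2 kinds of mouse bone marrow against each other in which the adiponectin-expressing lineage had not been removed. One kind came from DTRADQ mice that received no diphtheria toxin (DT), the libraries titled "DTRADQ, No DT" (4 libraries). The other came from control mice that had received DT, the libraries titled "Con, DT 1 day" (4) and "Con, DT 2 days" (4), which were pooled. The members were chosen by these titles alone and make up 12 of the 32 libraries of the series. The other 20 libraries entered the model only through the shared estimate of the spread, and their values are printed beside a result where they bear on it. Per the labels, the series holds RNA-seq of whole femur marrow from mice on a C57BL/6 background, 1 library per mouse, with 4 mice in each of 8 groups. Mice carrying iDTR, an inducible DT receptor, were crossed with adiponectin-Cre mice. The genotype field reads "DTR flox" for every library, with "ADQ Cre+" for DTRADQ and "No Cre" for the controls, which were littermates. DT was given into the peritoneum at 100 ng per mouse each day for 1 or 2 days, and the mice were 2 months old. The labels give no vehicle injection for the mice without DT, no zygosity of the receptor allele and no source of the Cre line.

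The DT receptor of mammals is heparin-binding EGF-like growth factor, encoded by Hbegf, and the mouse form binds the toxin too weakly for DT to enter. In iDTR mice a primate form sits behind a stop cassette in the ROSA26 locus, and Cre removes the stop. DT then blocks elongation factor 2 and the cell dies. In marrow, adiponectin-Cre marks the stromal cells that make CXCL12 and stem cell factor, together with marrow adipocytes. DTRADQ without DT carries Cre and the opened receptor but meets no toxin. Controls with DT meet the toxin but carry no Cre. A difference between these marrows holds the genotype and the injection together, and the 2 cannot be told apart within the contrast.

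The depth of the 4 DTRADQ libraries was 13.48 to 18.06 M counts and that of the 8 controls 12.38 to 15.05 M (means 15.9 and 13.7 M, exact two-sided permutation test over 495 splits, p = 0.044). The 10 most abundant genes took 22.79 to 24.79% of counts in DTRADQ without DT and 19.4 to 22.05% in the controls (exact permutation p = 0.002, adjusted over 3 such measures p = 0.003). Marrow was recognised in all 12 libraries by its blood lineage markers. Hbb-bs, an adult globin of red cells, was at 34300 to 47100 CPM in DTRADQ (counts scaled to library size) against 27400 to 51900 CPM in the 8 controls. Mpo, a granule enzyme of early granulocytes, was at 1270 to 1920 CPM against 1080 to 2110 CPM. Cd79a of the B cell receptor was at 138 to 204 CPM against 182 to 317 CPM, and Pf4, platelet factor 4, at 859 to 1220 CPM against 572 to 990 CPM. Outside the 12 libraries, replicates 3 and 4 of controls without DT stood apart, with 37.41% and 50.69% of counts in 10 genes.

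Genes of the targeted lineage gave no called difference by edgeR or DESeq2, and limma-voom called Adipoq lower in DTRADQ without DT. Adipoq, which encodes adiponectin (ENSMUSG00000022878, chromosome 16, 23146536 to 23158028 in GRCm38), lay at 28.6, 33.3, 47.6 and 28.8 CPM in DTRADQ without DT. In the controls it lay at 36.2, 37.4, 66.3 and 45.1 CPM after 1 day of DT and at 55.4, 55, 58.2 and 58.5 CPM after 2 days. The DTRADQ values were among the lower ones, and 1 of them overlapped the controls (log2 change −0.57, SE 0.22, adjusted p = 0.3173 by edgeR's quasi-likelihood test, 0.2609 by DESeq2 and 0.0448 by limma-voom). Between the genotypes without DT, Adipoq differed by −1.24 (SE 0.25, adjusted p = 0.00055). There Cxcl12 (0.13, adjusted p = 0.6268), Lepr (0.42, adjusted p = 0.1435) and Kitl (0.36, adjusted p = 0.1646) were not called. The controls of that comparison hold the libraries that stood apart. In whole marrow fewer cells of a type and less RNA per cell cannot be told apart. In DTRADQ mice given DT, Adipoq lay at 0.221 to 1.07 CPM over the 12 libraries, so both marrows compared here were far above that level.

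Of 26 genes of the adiponectin lineage's stromal cells, 25 were tested. EdgeR and DESeq2 called 0 of them, and limma-voom called 1, Adipoq, where over all genes it called 2.33%. Their median log2 change was 0.06, against 0.01 over all 14527 tested genes, and single members lay between −0.57 and 0.75. At an unadjusted p below 0.05, 2 members were higher and 1 lower, where the shares over all genes were 5.56% and 5.62%. The summed level of the list lay between 3060 and 3390 CPM in DTRADQ without DT, between 2890 and 3430 CPM in controls at day 1 and between 2870 and 3240 CPM at day 2. Cxcl12, the chemokine that holds blood stem cells and B cell precursors in place, lay at 400, 395, 466 and 302 CPM in DTRADQ against 270 to 530 CPM (median 389) in the 8 controls, a log2 change of −0.01 (SE 0.15). Lepr, the leptin receptor, lay between 28.8 and 45.1 CPM and between 28.7 and 47.4 CPM (−0.11, SE 0.18), and Kitl, stem cell factor, between 41.5 and 58.1 CPM and between 36.4 and 61.6 CPM (0.06, SE 0.16). The values of these 3 genes overlapped throughout. The BMP antagonists Grem1 (0.28, SE 0.25) and Chrdl1 (−0.25, SE 0.18) and the IGF-binding Igfbp5 (0.31, SE 0.16) were not called either.

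Of 22 genes of the lipid-filled adipocyte, 14 were tested. EdgeR and DESeq2 called 0 of them, with no adjusted p for Cidec from DESeq2. Limma-voom called Adipoq, Cidec and Scd1 lower, where over all genes it called 1.3% lower. The model of the 3 groups alone called 1 lower, Scd1, among the 43 genes it called lower over all. At an unadjusted p below 0.05 by edgeR, 6 were lower and 1 higher, where the shares over all genes were 5.62% and 5.56%, and the median log2 change was −0.49, the lowest among the 37 lists with at least 5 tested members. The summed level lay between 495 and 529 CPM in DTRADQ without DT, below each of the 8 controls at 530 to 800 CPM, with the nearest libraries of the 2 sides at 529 and 530 CPM. Cfd, adipsin, lay at 2.38, 5.39, 2.6 and 5.61 CPM in DTRADQ against 3.39 to 32.1 CPM (median 12.5) in the controls, a log2 change of −1.83 (SE 0.54, adjusted p = 0.1911). Cidec, which fuses lipid droplets, lay at 0.0518, 0.104, 0.137 and 0.693 CPM against 0.532 to 1.88 CPM (−2.23, SE 0.63, adjusted p = 0.184, and 0.0273 by limma-voom). Its 4 DTRADQ libraries held between 1 and 10 reads, and replicate 4 was the high one. Scd1, the desaturase that makes oleate, gave −0.77 (SE 0.22, adjusted p = 0.1877, and 0.0473 by limma-voom). Fabp4, the fatty acid carrier of adipocytes, gave −0.19 (SE 0.28), and lipoprotein lipase, Lpl, 0.07 (SE 0.14). Between the genotypes without DT, edgeR called Cfd (−2.51, adjusted p = 0.0026), Cidec (−2.06, adjusted p = 0.034) and Fabp4 (−1.74, adjusted p = 0.00023) lower. It did not call Scd1 (−0.42, adjusted p = 0.232) or Lpl (−0.18, adjusted p = 0.4624) there. The controls of that comparison hold the libraries that stood apart. Plin1, the coat protein of lipid droplets, had no read in DTRADQ without DT, where 3 counts of a library total stand for 0.166 to 0.242 CPM over the 12 libraries, and at most 0.139 CPM in the controls.

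Over all genes the marrows differed little. Of 14527 genes tested, 4 were called at an adjusted p below 0.05 (0.0275%), with 2 higher (0.0138%) and 2 lower (0.0138%) in DTRADQ without DT. At an unadjusted p below 0.05 there were 1624 genes (11.2%), 807 higher (5.56%) and 817 lower (5.62%). The 4 and the 8 libraries did not overlap for 350 genes (2.41%), 165 higher (1.14%) and 185 lower (1.27%). Log2 changes lay between −0.45 and 0.5 for the middle 90% of genes, and 174 genes lay beyond 1 in either direction. The genes called were Me1, Gm11868, C920006O11Rik and Dok1.

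**Figure D1:**
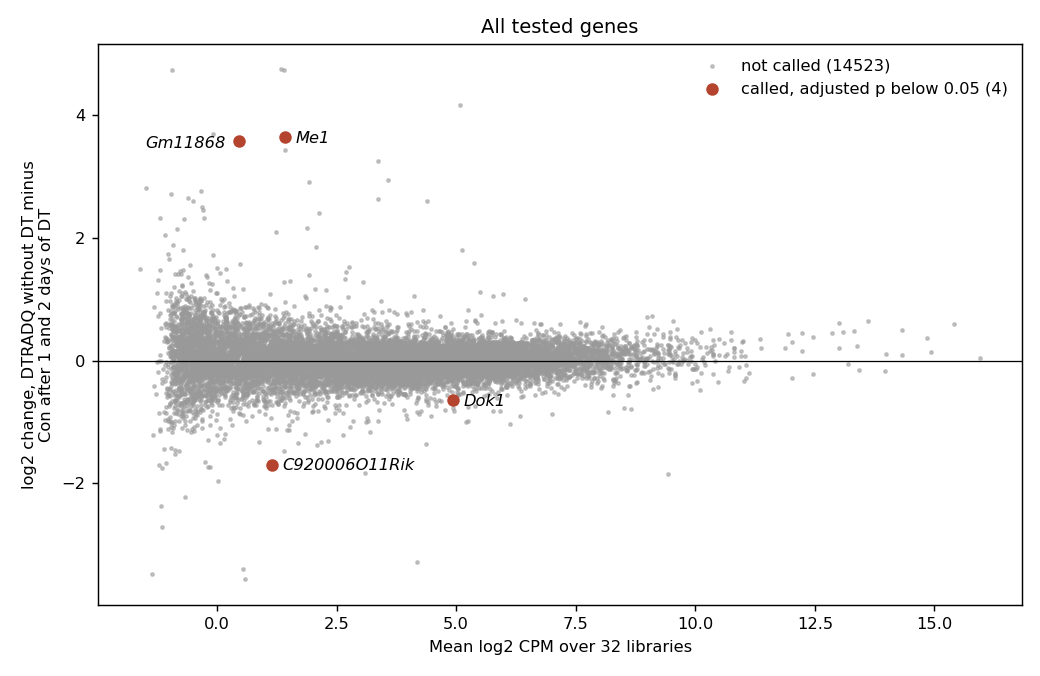
Each point is 1 of 14527 tested genes, with the mean log2 CPM over 32 libraries on the x axis and the log2 change of DTRADQ without DT against controls after 1 and 2 days of DT on the y axis. The 4 called genes are red and named, and most genes lie between −0.45 and 0.5.

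The count of called genes depended on which libraries set the spread and on the tool. Fitting only the 3 groups gave 61 genes (18 higher, 43 lower), treating the 8 controls as 1 group gave 116 (33 and 83), and leaving replicates 3 and 4 of controls without DT out of the model gave 188 (65 and 123). DESeq2 called 99 genes (0.681%), 27 higher (0.186%) and 72 lower (0.496%), and limma-voom with library weights 338 (2.33%), 149 higher (1.03%) and 189 lower (1.3%). The biological coefficient of variation common to all genes was 20.3% over 32 libraries, 15.6% within the 3 groups and 16.1% without those 2 control libraries. All 4 genes were called in each of these alternatives, and 35 genes were called in all 5 (10 higher, 25 lower). Of the 35, 25 did not overlap between the 4 and the 8 libraries, against 2.41% over all genes. The 35 were picked by a difference between these same libraries, so this count adds no separate support.

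For scale, the same model called 3944 genes (27.1%) between DTRADQ and controls without DT. It called 4859 (33.4%) and 4109 (28.3%) between controls after 1 and 2 days of DT and controls without DT. These 3 comparisons share the controls without DT, which hold the libraries that stood apart. Between DTRADQ and controls after DT it called 567 genes (3.9%) at day 1, 1238 (8.52%) at day 2 and 3330 (22.9%) at day 3.

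The control days could be pooled without a called difference between them. Controls after 2 days against controls after 1 day gave 0 called genes by edgeR, DESeq2 and limma-voom, with 332 (2.29%) at an unadjusted p below 0.05 by edgeR. DTRADQ without DT gave 2 called genes (0.0138%) against day 1 alone, Me1 and Gm11868, and 6 (0.0413%) against day 2 alone, 2 higher and 4 lower.

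Me1 encodes the cytosolic malic enzyme, which turns malate into pyruvate and yields NADPH for lipid synthesis (ENSMUSG00000032418, chromosome 9, 86581371 to 86695953, minus strand). It lay at 5.44, 4.56, 2.94 and 2.56 CPM in DTRADQ without DT. In the controls it lay at 0.245, 0.255, 0.487 and 0.2 CPM after 1 day and at 0.058, 0.518, 0.452 and 0.262 CPM after 2 days. The lowest DTRADQ library was above the highest control, and the log2 change was 3.64 (SE 0.37, adjusted p = 2.9e-07). The 4 DTRADQ libraries held 37 to 105 reads each and the 8 controls 1 to 8, so the control level rests on few reads.

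Gm11868 is annotated as a processed pseudogene on chromosome 4 (ENSMUSG00000050550, 18844202 to 18845679, minus strand). It lay at 1.87, 2.12, 1.64 and 1.59 CPM in DTRADQ without DT, at 0.0613, 0.383, 0.0696 and 0.133 CPM in controls after 1 day and at 0.116, 0.0647, 0.258 and 0.0656 CPM after 2 days. The ranges did not overlap, and the log2 change was 3.59 (SE 0.36, adjusted p = 2.9e-07), on 23 to 41 reads against 1 to 6. Its GENCODE M21 transcript aligned with that of Cyb5r4, a cytochrome b5 reductase, over 1485 columns at 98% identity. An ungapped stretch of 90 bases with the most differences is shown, because reads of the gene and of its copy can be told apart only where they differ. The capitals mark the 4 differing bases of 90, which are bases 60 to 149 of the Gm11868 transcript and bases 327 to 416 of the Cyb5r4 transcript, inside its coding part (bases 166 to 1749).
Gm11868: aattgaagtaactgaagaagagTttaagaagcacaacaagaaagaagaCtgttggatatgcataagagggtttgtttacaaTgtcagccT
Cyb5r4: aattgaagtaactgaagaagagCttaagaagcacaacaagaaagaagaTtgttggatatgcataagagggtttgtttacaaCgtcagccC
The count of Gm11868 is uncertain for this reason. Cyb5r4 itself lies on chromosome 9 (87022014 to 87077774), 440.6 kb from the start of Me1, and lay at 27.2, 26.5, 21.3 and 20.1 CPM in DTRADQ without DT against 23.5 to 40.5 CPM (median 35.3) in the controls, with overlap (log2 change −0.47, SE 0.13, adjusted p = 0.1841). Me1 too has copies, and Gm7049 aligned with it over 1716 columns at 98.4% identity.

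C920006O11Rik is a long non-coding RNA (ENSMUSG00000097574, chromosome 9, 78175914 to 78178879). It lay at 0.674, 0.828, 1.3 and 1.32 CPM in DTRADQ without DT, at 3.19, 2.23, 3.55 and 2.13 CPM in controls after 1 day and at 3.65, 2.72, 4.52 and 4.86 CPM after 2 days. All 4 DTRADQ libraries were below all 8 controls (log2 change −1.7, SE 0.27, adjusted p = 0.0032). Against day 1 alone the change was −1.45 and did not pass (adjusted p = 0.2015), and against day 2 alone it was −1.95 (adjusted p = 0.0013).

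Dok1 encodes an adaptor that dampens signalling by tyrosine kinases in blood cells (ENSMUSG00000068335, chromosome 6, 83030934 to 83033471). It lay at 19.1, 23.8, 22.4 and 18.5 CPM in DTRADQ without DT, at 30.2, 35.4, 33.8 and 27.1 CPM in controls after 1 day and at 34.3, 36.2, 36.5 and 30.6 CPM after 2 days. The ranges did not overlap, and the log2 change was −0.65 (SE 0.12, adjusted p = 0.0264). The call was lost in 7 of 12 fits that each left out 1 library (adjusted p from 0.0182 to 0.1886), with skeletal muscle as a covariate (0.0955) and against day 1 alone (0.2558).

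**Figure D2:**
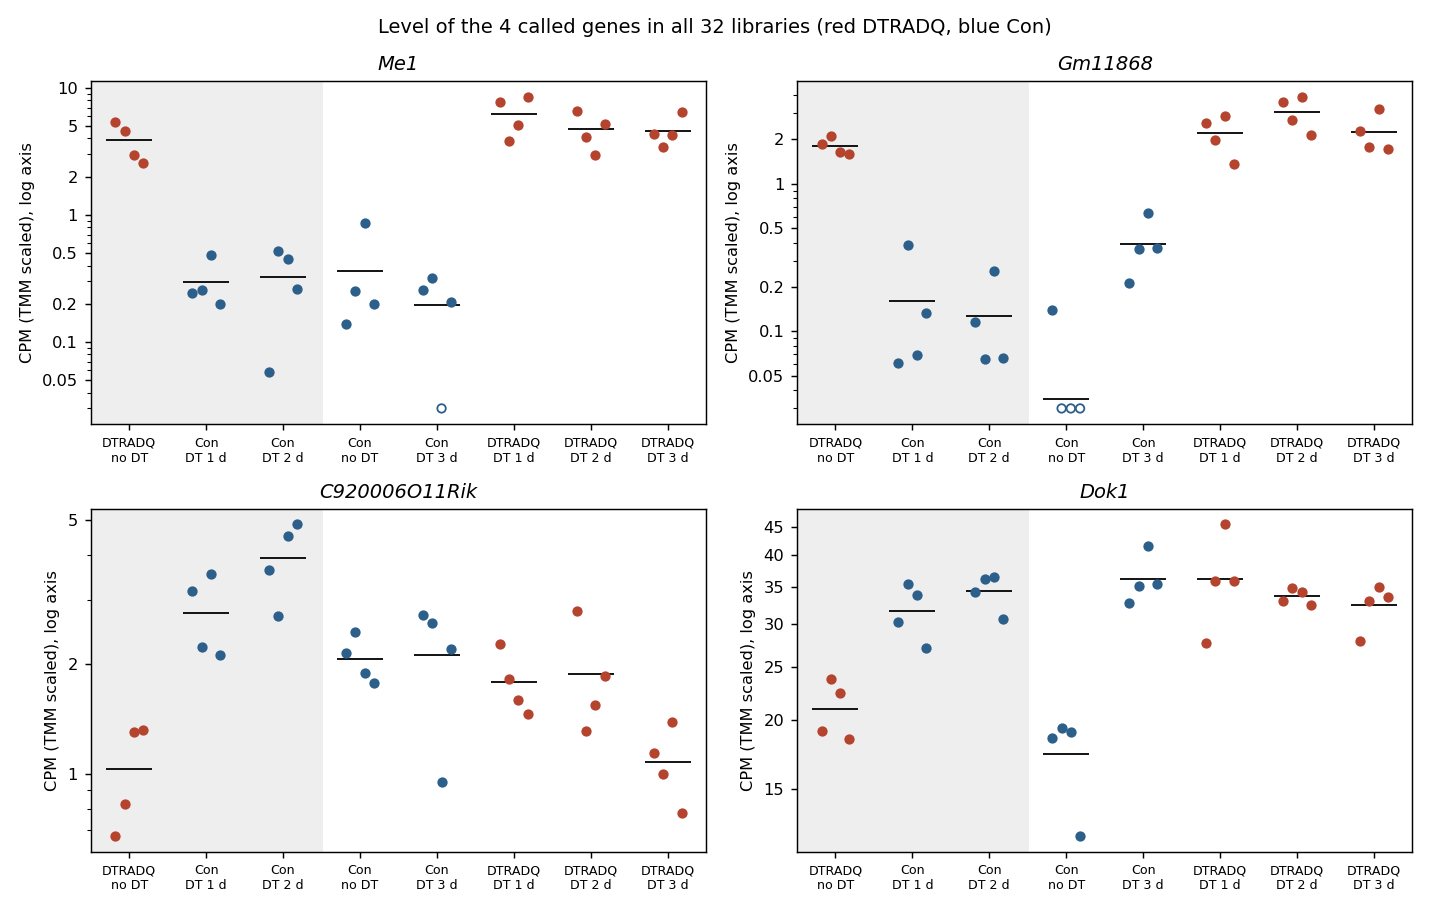
CPM of the 4 called genes on log axes in all 32 libraries, 1 point per library, with a line at each group mean and open circles at the bottom for libraries with no read. The shaded groups are those compared. Me1 and Gm11868 are high in every DTRADQ group, and Dok1 is low in both groups without DT.

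Values over all 32 libraries were set beside the labels for each called gene. They include the 12 libraries whose contrast gave the calls, so these ranges are not a separate test. Me1 ranged from 2.56 to 8.54 CPM over the 16 DTRADQ libraries and from 0 to 0.871 CPM over the 16 controls, and Gm11868 from 1.36 to 3.9 CPM and from 0 to 0.632 CPM. In a control library of day 3 with no Me1 read, 3 counts of its total stand for 0.142 CPM. The day 3 mice are separate from the 12 compared here, but both genotypes had DT, which removed the lineage in DTRADQ. There Me1 differed by 4.49 (SE 0.46, adjusted p = 2.5e-08) and Gm11868 by 2.49 (SE 0.36, adjusted p = 6.6e-06). Without DT, the genotypes differed in them by 3.56 (adjusted p = 2.1e-05) and 4.93 (adjusted p = 1e-05). The controls of that comparison hold the libraries that stood apart. Among 14527 genes, 4 (0.0275%) separated all 16 DTRADQ from all 16 controls, each of them higher in DTRADQ, and 0 were lower. Besides Me1 and Gm11868 these were Eif4a2, a helicase of translation initiation, and Zfp949, a zinc finger gene.

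Dok1 separated the libraries by the DT label instead. It lay between 12.3 and 23.8 CPM in the 8 libraries without DT and between 27.1 and 45.5 CPM in the 24 with DT. The 12 libraries compared are again among these. The change between controls after DT and controls without DT was 0.85 (SE 0.14) at day 1 and 0.98 (SE 0.14) at day 2, and between DTRADQ and controls without DT it was 0.26 (SE 0.14, adjusted p = 0.1769). Each of these uses the controls without DT, of which replicates 3 and 4 stood apart. Separation of the 8 libraries without DT from the 24 with DT held for 11 genes, 4 higher without DT (0.0275%: Acbd6, Smim26, Ubqln1 and Utp14a) and 7 lower (0.0482%). The lower genes were Dok1, Aspscr1, Stub1, Aup1, Atp6v0a1, Bcl2l1 and D230025D16Rik. Aspscr1, which tethers glucose transporter vesicles, lay at 16.5, 18.1, 15 and 9.77 CPM in DTRADQ without DT against 22 to 25.6 CPM in the 8 controls (−0.68, SE 0.14, adjusted p = 0.0631). Stub1, a ubiquitin ligase that works with chaperones, gave −0.8 (SE 0.17, adjusted p = 0.0631) and overlaps the gene model Jmjd8. Both also differed between the genotypes without DT, Aspscr1 by 0.93 (SE 0.17, adjusted p = 0.00016) and Stub1 by 0.8 (SE 0.21, adjusted p = 0.0055). Bcl2l1 encodes the survival factor BCL-XL and gave −0.56 (SE 0.21, adjusted p = 0.2903). C920006O11Rik followed neither label fully, since its 16 DTRADQ libraries (0.674 to 2.8 CPM) overlapped the 16 controls (0.948 to 4.86 CPM).

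Of the genes that took part in the design, the receptor gene and the genes around Adipoq were examined next. Mouse Hbegf lay at 2.13, 2.12, 3.21 and 1.59 CPM in DTRADQ without DT. In controls it lay at 0.674, 0.958, 0.557 and 0.732 CPM after 1 day of DT and at 0.464, 1.23, 1.03 and 0.394 CPM after 2 days. The ranges did not overlap, but the change missed the threshold (log2 change 1.57, SE 0.33, adjusted p = 0.0631, on 23 to 47 reads against 6 to 19). It passed with DESeq2 (adjusted p = 0.0041), limma-voom (0.0118) and the 3 groups alone (0.0342). Without DT on either side, the genotypes differed by 1.54 (SE 0.43, adjusted p = 0.0084). After 1 day of DT, DTRADQ libraries had 0.685 to 1.39 CPM, after 2 days 0.545 to 2.84 CPM and after 3 days 1.65 to 2.11 CPM. Whether reads of the receptor transgene were counted at the mouse gene was not tested. The other 11 tested genes of toxin entry and of its target had log2 changes between −0.55 and 0.35. They included Eef2, the target itself (−0.24, SE 0.13), Furin, the protease that cuts the toxin (0.01, SE 0.15), and Dph1, which makes the diphthamide that DT modifies (−0.55, SE 0.26, adjusted p = 0.4251). Of 11 tested EGF receptors, ligands and feedback genes, edgeR called 0, and DESeq2 and limma-voom called Hbegf. Over all genes DESeq2 called 0.681% and limma-voom 2.33%. The median of the 11 was 0.23 (0.09 without DTRADQ replicate 1).

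Adiponectin-Cre lines are often made from large genomic clones that carry Adipoq with its neighbours, and the labels do not say how this line was made. Of 28 genes whose start lies within 500 kb of the start of Adipoq, 10 were tested. EdgeR called 0 of them, DESeq2 called Kng1, limma-voom called Kng1, Kng2, Eif4a2, Rfc4 and Adipoq, and the model of the 3 groups alone called Kng1 and Rfc4. Over all genes DESeq2 called 0.681% and limma-voom 2.33%. At an unadjusted p below 0.05, 4 were higher (Kng1, Kng2, Rfc4 and the small nucleolar RNA gene Gm24616) and 1 (Adipoq) was lower. The shares over all genes were 5.56% and 5.62%. The median log2 change of the 10 was 0.47, and 3 were higher without overlap, against 1.14% over all genes. Kng1, a kininogen gene 88.7 kb upstream, lay at 25.2, 22.8, 32 and 27 CPM in DTRADQ without DT against 9.98 to 17.7 CPM (median 13.7) in the controls. It did not overlap (log2 change 0.97, SE 0.21, adjusted p = 0.0727, and 0.0106 by DESeq2). Kng2, 160.7 kb upstream, lay at 14.4, 12.6, 18.5 and 15.1 CPM against 6.12 to 12.4 CPM (0.63, SE 0.23, adjusted p = 0.2758). Their transcripts aligned at 91.1% identity, so reads may be shared between them. DTRADQ libraries after 1 day of DT had 0.882 to 1.83 CPM of Kng1 and 0.368 to 0.657 CPM of Kng2, below DTRADQ without DT (adjusted p = 4.7e-11 for both).

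Eif4a2, 39.1 kb upstream, lay at 367, 312, 277 and 261 CPM in DTRADQ without DT against 201 to 250 CPM (median 215) in the controls. All 4 DTRADQ libraries were above all 8 controls, and the change was called by limma-voom (adjusted p = 0.0381) but not by edgeR (log2 change 0.46, SE 0.23, adjusted p = 0.4517) or DESeq2 (0.3873). Over the series its DTRADQ range was 261 to 367 CPM and its control range 38.5 to 253 CPM, and the 12 controls with DT spanned only 200 to 253 CPM. Rfc4, a clamp loader subunit of DNA replication whose model overlaps the end of Eif4a2, lay at 225, 266, 311 and 322 CPM against 160 to 236 CPM (0.57, SE 0.18, adjusted p = 0.2175). Gm24616 lies within Eif4a2 and gave 0.49 (SE 0.2). The tested genes farther away or downstream had smaller or less precise changes, with Dnajb11 at 0.11 (SE 0.09), Tbccd1 at −0.1 (SE 0.12), St6gal1 at −0.04 (SE 0.16) and Rtp4 at 0.48 (SE 0.31).

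**Figure D3:**
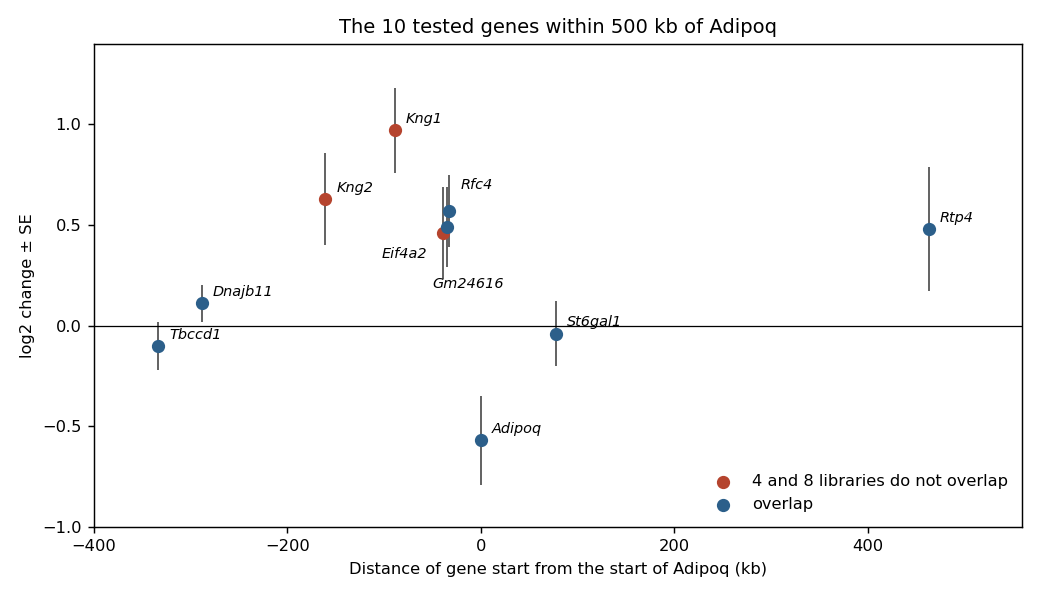
The log2 change with its SE for the 10 tested genes within 500 kb of Adipoq, against the distance of each gene's start from that of Adipoq in kb. Kng2, Kng1 and Eif4a2, in red, did not overlap between the 4 and the 8 libraries, as for 1.14% of all genes in the higher direction.

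Gt(ROSA)26Sor, the non-coding transcript of the ROSA26 locus (ENSMUSG00000086429, chromosome 6, 113067428 to 113077333), had levels that fell into a low and a high range. It lay at 3.42, 3.57, 4.24 and 4.23 CPM in DTRADQ without DT. In controls it lay at 2.08, 2.68, 55.4 and 74.2 CPM after 1 day and at 26.4, 3.3, 78.2 and 60.4 CPM after 2 days, so 3 of the 8 controls were as low as DTRADQ and 5 were higher. The log2 change was −3.28 (SE 1.01, adjusted p = 0.1998 by edgeR, 0.0411 by DESeq2 and 0.2795 by limma-voom). Over the series 15 of 16 DTRADQ libraries lay at or below 4.24 CPM and 1 at 29.1 CPM. Among controls 7 of 16 lay at or below 3.75 CPM and 9 at 19.4 CPM or more. The gene overlaps Thumpd3 on the opposite strand, and without a known strand setting their reads cannot be told apart. Thumpd3 gave 0.12 (SE 0.08). Of 32 genes within 500 kb of Gt(ROSA)26Sor, 19 were tested and edgeR called 0, with a median log2 change of −0.13. At an unadjusted p below 0.05, 0 were higher and 4 lower (Gt(ROSA)26Sor, Cidec, Ogg1 and Fancd2). The shares over all genes were 5.56% and 5.62%. DESeq2 called Gt(ROSA)26Sor itself and limma-voom called Cidec, both lower, where over all genes they called 0.496% and 1.3% lower.

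**Figure D4:**
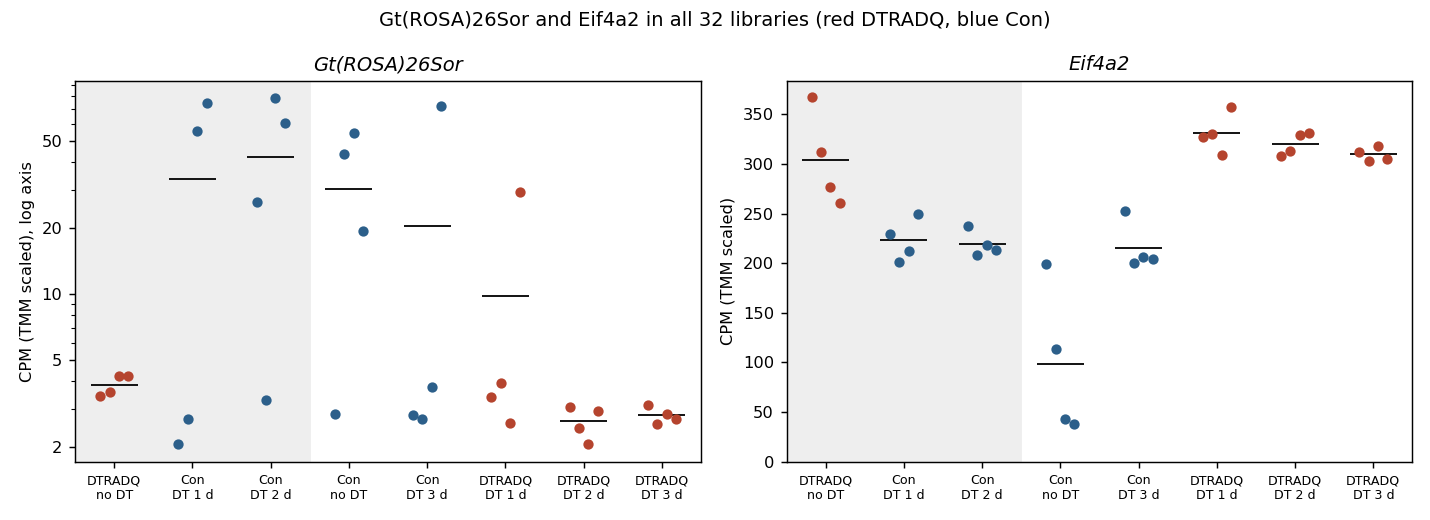
CPM of Gt(ROSA)26Sor (log axis) and Eif4a2 (linear axis from 0) in all 32 libraries, with group means as lines and the compared groups shaded. Control values of Gt(ROSA)26Sor lie either at 3.75 CPM or less or at 19.4 CPM or more, and Eif4a2 is higher in each of the 16 DTRADQ libraries than in each control.

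The place of the differing genes on the chromosomes was described after Me1 was seen. Chromosome 9 had the highest share of genes whose 4 and 8 libraries did not overlap, 32 of 793 (4.04%, against 2.41% over all). Chromosomes 18 (3.49%) and 16 (3.41%) came next. Among 229 windows of 10 Mb with at least 20 tested genes, that from 80 to 90 Mb on chromosome 9 had the highest share. It was 4 of 36 (11.1%), with Me1 itself among the 4. Windows elsewhere came close, with 3 of 28 (10.7%) at 60 to 70 Mb on chromosome 7. On chromosome 10, 4 of 39 (10.3%) did not overlap at 110 to 120 Mb. In the chromosome 9 window, 13 of the 36 (36.1%, against 11.2% over all) had an unadjusted p below 0.05. Between 80 and 100 Mb, 9 of 85 genes (10.6%) did not overlap, 4 higher and 5 lower, and Me1 was the only one of the 9 called by edgeR. BC043934, a gene model with a change of −1.13 (SE 0.25, adjusted p = 0.0764), passed with DESeq2 (0.0041), limma-voom (0.0155) and the 3 groups alone (0.0438). Zfp949 (88548020 to 88571061) lay at 36.3, 30.3, 30 and 31.3 CPM in DTRADQ without DT and between 18.9 and 28.7 CPM in the controls (log2 change 0.45, SE 0.13, adjusted p = 0.1906). Over the series its DTRADQ libraries lay between 30 and 40.8 CPM and its controls between 12.6 and 29.4 CPM. The non-coding 9330159M07Rik lay at 1.66, 1.66, 1.23 and 1.25 CPM against 1.84 to 2.94 CPM (−0.73, SE 0.24, adjusted p = 0.2289). In the separate mice of day 3, where DT had removed the lineage in DTRADQ, 9330159M07Rik differed between the genotypes by −1.52 (adjusted p = 0.00012). Zfp949 differed there by 0.57 (adjusted p = 0.0083). Without DT, the changes between the genotypes were −1.16 (adjusted p = 0.0023) and 0.68 (adjusted p = 0.0021). The controls of that comparison hold the libraries that stood apart.

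Farther along lay 2 genes of the phospholipid scramblase family. Plscr2 lay at 4.2, 2.85, 3.49 and 3.4 CPM against 1.47 to 2.72 CPM (0.77, SE 0.24, adjusted p = 0.2094), and Plscr4 at 2.44, 2.28, 2.53 and 2.36 CPM against 3.13 to 5.45 CPM (−0.82, SE 0.24, adjusted p = 0.1955, with 0.0411 by DESeq2, 0.0265 by limma-voom and 0.0438 in the 3 groups alone). At day 3, with the lineage removed in DTRADQ, the genotypes differed in them by 1.46 (adjusted p = 0.00015) and −1.3 (adjusted p = 0.00095). Without DT the changes were 0.2 (adjusted p = 0.6595) and 0.1 (adjusted p = 0.8412). The tested genes nearest to Me1 did not pass: Rwdd2a gave 0.12, Pgm3 −0.09, Dop1a 0.03 and Ube2cbp −0.58 (SE 0.3).

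Among the 35 genes called in all 5 alternatives named above, the higher ones besides Me1, Gm11868, Hbegf and Kng1 were Mmp13, Phactr2, Cebpd, Rhoj, Cald1 and Npepps. None of these 6 passed in the model of all 32 libraries. Mmp13, a collagenase of bone and cartilage turnover, lay at 53.7, 46.3, 83.4 and 108 CPM against 25.7 to 50.5 CPM, with overlap (log2 change 1.12, SE 0.24, adjusted p = 0.0631). Cebpd, a transcription factor of the acute phase, lay at 15.3, 12, 12.9 and 16.4 CPM against 6.43 to 10.8 CPM (0.8, SE 0.19, adjusted p = 0.1139). Phactr2, which binds actin, gave 1.59 (SE 0.37, adjusted p = 0.0953), and its DTRADQ libraries spread from 24.2 to 134 CPM and overlapped the controls. Rhoj, a GTPase of endothelium, gave 0.61 (SE 0.15), and Cald1, caldesmon of the actin cytoskeleton, 0.48 (SE 0.11).

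The 25 lower genes had log2 changes between −1.7 and −0.39. Map4k1, a kinase that restrains lymphocyte receptors, lay at 25.4, 28.1, 26.7 and 24.3 CPM against 30.8 to 45.2 CPM (−0.55, SE 0.12, adjusted p = 0.0837). Pfkl, a subunit of the glycolytic phosphofructokinase, lay at 16.1, 17.9, 17 and 14.3 CPM against 19.1 to 31.2 CPM (−0.62, SE 0.15, adjusted p = 0.1261). Gtse1, a partner of microtubules and p53, lay between 19.3 and 19.5 CPM against 22.3 to 30.1 CPM (−0.45, SE 0.13, adjusted p = 0.1841). Pml of nuclear bodies gave −0.51 (SE 0.14), Ide, the insulin-degrading enzyme, −0.76 (SE 0.2), and Slc25a39, the mitochondrial carrier of glutathione, −0.84 (SE 0.22, adjusted p = 0.1568). Gdf15, a stress-induced hormone outside these 35, had 1 to 3 reads in each DTRADQ library and 6 to 48 in each control, with a log2 change of −3.57 (SE 0.74, adjusted p = 0.0631). It lay between 0 and 0.337 CPM in controls without DT as well.

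EdgeR called 0 members in each of the 38 lists, while DESeq2 and limma-voom called members of some, and 37 lists had at least 5 tested members. The list of mature neutrophil genes had a median of 0.39 with 9 of 24 higher and 0 lower at an unadjusted p below 0.05 (5.56% and 5.62% over all genes), and its summed level lay between 64500 and 74500 CPM in DTRADQ without DT against 36300 to 62200 CPM in the 8 controls. S100a8, a calcium-binding protein that fills neutrophils, lay at 39300, 42500, 38100 and 45500 CPM against 20300 to 36000 CPM (0.6, SE 0.24, adjusted p = 0.3273). Promyelocyte granule genes had a median of 0.19, monocyte genes 0.14, and eosinophil, basophil and mast cell genes 0.29. The monocyte median was 0.05 without DTRADQ replicate 4 and the eosinophil, basophil and mast cell median 0.08 without DTRADQ replicate 2. Lower medians were seen for mature B and plasma cell genes (−0.32, with 4 of 23 lower at an unadjusted p below 0.05), B cell precursor genes (−0.23) and erythroid genes (−0.2). Of 18 B cell precursor genes, 1 was higher and 1 lower at an unadjusted p below 0.05. DESeq2 and limma-voom each called 1 of these 18 higher and 0 lower, where over all genes they called 0.186% and 1.03% higher. Cd22, a brake on B cell receptors, gave −0.68 (SE 0.23, adjusted p = 0.2495). Leaving out each of the 12 libraries in turn moved the neutrophil median between 0.29 and 0.49. The mature B and plasma cell median was −0.21 without DTRADQ replicate 4, the B cell precursor median −0.14 without replicate 4 of controls at day 2, and the erythroid median −0.12 without DTRADQ replicate 2.

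Genes of the mitochondrial genome made up 2.575 to 3.192% of counts in DTRADQ without DT and 1.892 to 2.473% in the 8 controls, without overlap (exact two-sided permutation test over 495 splits, p = 0.002, adjusted over 3 measures p = 0.003). All 8 tested members had a log2 change above 0, from 0.2 to 0.79, and 5 had an unadjusted p below 0.05. Over all genes 5.56% were higher at that threshold. mt-Nd2, a subunit of complex I, gave 0.44 (SE 0.14, adjusted p = 0.2064). Nuclear genes of the respiratory chain had a median of 0.18 (0.07 without DTRADQ replicate 4), with single members between −0.82 and 0.36. At an unadjusted p below 0.05, 0 of 22 were higher and 3 lower (5.56% and 5.62% over all genes). Limma-voom called 0 of them higher and 3 lower (1.03% and 1.3% over all genes).

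Lists of response genes had medians between −0.18 and 0.25, where the quartiles of all genes were −0.15 and 0.17. Type I interferon genes had a median of −0.04 with 0 of 20 at an unadjusted p below 0.05. Glucocorticoid response genes had a median of 0.02, heat shock genes 0.12, integrated stress response genes 0, p53 targets 0.01 and inflammatory genes −0.09. At an unadjusted p below 0.05 (5.56% higher and 5.62% lower over all genes), these lists had the following members. They were 1 of 18 higher and 0 lower, 3 of 19 and 0, 0 of 18 and 3, 1 of 17 and 2, and 1 of 19 and 1, in that order. The 2 lower p53 targets, Gdf15 and Gtse1, were called by DESeq2 (0.496% lower over all genes). Immediate early genes had a median of 0.25 with 4 of 18 higher at an unadjusted p below 0.05 (5.56% over all genes), of which Junb (0.72, SE 0.26, adjusted p = 0.2745) and Fosl2 (0.47, SE 0.18, adjusted p = 0.2977), subunits of AP-1, did not overlap between the groups, as for 1.14% of all genes in that direction. PPAR targets of fatty acid use had a median of −0.18 with 2 of 19 lower at an unadjusted p below 0.05 (5.62% over all genes). Circadian genes had a median of −0.08 with 1 of 17 lower and 0 higher at an unadjusted p below 0.05 (5.62% and 5.56% over all genes). The lower one was Nr1d1 at −0.89 (SE 0.28, adjusted p = 0.2145). It did not overlap between the groups, as for 1.27% of all genes in that direction. Among the other circadian genes, Dbp gave 0.13 (SE 0.25) and Per1 −0.23 (SE 0.39). Fkbp5, a glucocorticoid-induced chaperone partner, gave 0 (SE 0.26), and Nnt, the mitochondrial transhydrogenase, 0.31 (SE 0.24).

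Skeletal muscle genes had the highest median of the lists, 1.86 over 15 tested genes, with 11 higher at an unadjusted p below 0.05 (5.56% over all genes). The summed level lay between 51.4 and 412 CPM in DTRADQ without DT, between 50.5 and 58.1 CPM in controls at day 1 and between 60 and 197 CPM at day 2. DTRADQ replicate 4 held most of it, with Myh4, a fast myosin, at 21 CPM against 0.778, 0.104 and 3.01 CPM in the other 3. Without that library the median was 0.82 and 1 of 15 genes had an unadjusted p below 0.05. Limma-voom gave this list a median of 0.92. Osteoblast and bone matrix genes had a median of 0.35, which was 0.1 without the same DTRADQ replicate 4 and 0.23 by limma-voom. At an unadjusted p below 0.05, 7 of 20 were higher and 1 lower (5.56% and 5.62% over all genes). The lower one was Alpl at −0.73 (SE 0.18, adjusted p = 0.1261 by edgeR, 0.0272 by DESeq2 and 0.0228 by limma-voom). It did not overlap between the groups, as for 1.27% of all genes in that direction. Bglap, osteocalcin, was at 21.3 CPM in DTRADQ replicate 4 against 2.54 to 3.52 CPM in the other 3. Whether reads are shared between Bglap and Bglap2 was not tested. Dmp1 of osteocytes gave 0.5 (SE 0.5). With muscle as a covariate, 4 genes were called, and Dok1 was not among them. Of the cartilage markers, Acan had no read in DTRADQ and at most 0.058 CPM in controls. Col2a1 lay at 0.207, 0.362, 1.03 and 1.52 CPM in DTRADQ against 0.197 to 0.487 CPM, so replicates 3 and 4 were above the controls (1.1, SE 0.52, unadjusted p = 0.044 and adjusted p = 0.4298 by edgeR).

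**Figure D5:**
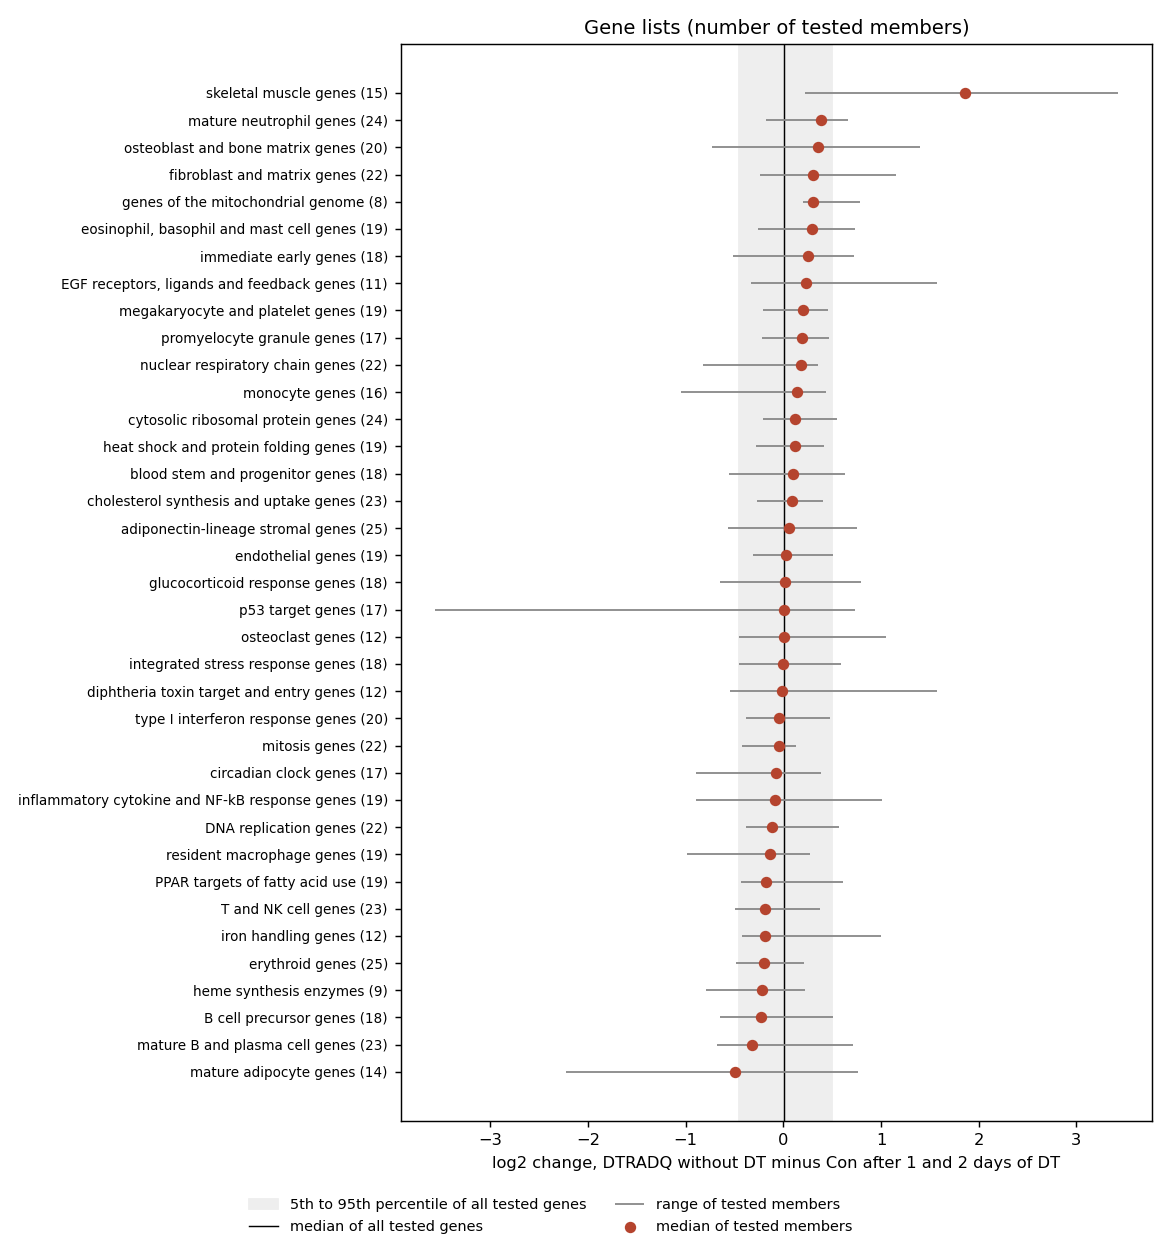
Median (red) and range (grey line) of the log2 change over the tested members of the 37 lists with at least 5, with the 5th to 95th percentile of all genes as a grey band from −0.45 to 0.5 and their median of 0.01 as a line. The skeletal muscle median of 1.86 and the mature adipocyte median of −0.49 lie outside the band.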

How the data were processed

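Per the submitters' processing notes, the tools were bcl2fastq, STAR 2.0.4b, Subread and featureCounts 1.45 with GRCm38, and libraries were made with the Clontech SMARTer kit, per the labels' protocols. The annotation release, strand setting and handling of reads with several matches were not given in the sources used here. Each table deposited by the authors held raw counts, CPM and RPKM, per the file headers, for 41388 genes. The deposited CPM equalled counts over the library total to within 4.4e-10, and the deposited RPKM equalled CPM over gene length to a relative 3.9e-14. Only the counts were tested.

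In R 4.3.3, genes passing filterByExpr of edgeR 4.0.16 (minimum count 10, 14527 genes) were scaled by TMM and fitted by quasi-likelihood to 8 group means over 32 libraries. The main contrast was DTRADQ without DT minus the mean of controls at 1 and 2 days, two-sided, with Benjamini-Hochberg adjustment and a threshold of 0.05. The SE is the absolute log2 change over the square root of F. Printed CPM are TMM scaled. The model was tested on simulated counts. Alternatives used DESeq2 1.42.0, limma 3.58.1 and other sets of libraries. A bias-adjusted quasi-likelihood fit was added after seeing the data. No 2 libraries of a group were copies (at least 11.954 chi-square units per gene). The labels do not say what a replicate number stands for, and p-values measure the spread between mice.

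The libraries, the 38 gene lists and the tests were chosen with earlier results of these data known. The rule for named genes took fixed genes (such as Adipoq, Cxcl12 and Hbegf), up to 15 called genes in each direction whose libraries did not overlap and whose average log2 CPM reached 1, and up to 3 called members per list. Cell type markers and genes near Adipoq and Gt(ROSA)26Sor were added. Uncalled list members, the genes called in the alternatives or separated by a label, and those of chromosome 9 were named after their values were seen. Sequences are from GENCODE M21 transcripts, aligned with blastn. Intervals of counting error are bounded by a floor of 3 counts.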

Additional observations from a re-analysis of the deposited data

Results flagged for a closer look

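In groups of 4 libraries, a value was singled out where its gap to the nearest other exceeded 0.829 of the group's range. Of 243 such sets of 4 values over 81 named genes, 22 were singled out, where chance gives about 1 in 20. Replicate 1 of DTRADQ without DT had Rbm38 at 49.4 CPM against 33 to 33.6 CPM in the other 3. Replicate 4 of DTRADQ without DT had Cidec at 0.693 CPM against 0.0518 to 0.137 CPM in the other 3, Car3 at 29 CPM against 6.95 to 10.5 CPM in the other 3, Myh4 at 21 CPM against 0.104 to 3.01 CPM in the other 3, Ttn at 22.2 CPM against 2.85 to 3.69 CPM in the other 3, Actc1 at 5.13 CPM against 0.207 to 1.03 CPM in the other 3 and Bglap at 21.3 CPM against 2.54 to 3.52 CPM in the other 3. Replicate 1 of controls at day 1 had Ide at 35.6 CPM against 55.4 to 57.5 CPM in the other 3, Acta1 at 3.99 CPM against 0.639 to 1.11 CPM in the other 3 and Ckm at 1.04 CPM against 0.192 to 0.266 CPM in the other 3. Replicate 3 of controls at day 1 had Gdf15 at 3.2 CPM against 0.49 to 0.932 CPM in the other 3, Cidec at 1.88 CPM against 0.532 to 0.736 CPM in the other 3 and Alpl at 9.88 CPM against 5.4 to 6.13 CPM in the other 3. Replicate 4 of controls at day 1 had Gm24616 at 17.5 CPM against 9.25 to 10.4 CPM in the other 3 and Rfc4 at 236 CPM against 181 to 190 CPM in the other 3. Replicate 1 of controls at day 2 had Plin1 at 0.058 CPM against 0 CPM in the other 3, Igfbp5 at 104 CPM against 56.9 to 61.4 CPM in the other 3 and Acan at 0.058 CPM against 0 CPM in the other 3. Replicate 2 of controls at day 2 had Myh4 at 3.36 CPM against 0.464 to 0.904 CPM in the other 3, Acta1 at 45.9 CPM against 2.23 to 3.68 CPM in the other 3 and Ckm at 9.96 CPM against 0.525 to 1.1 CPM in the other 3. Replicate 4 of controls at day 2 had Pml at 71.3 CPM against 66.9 to 67.6 CPM in the other 3.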

How the results depend on the processing

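The 4 called genes of the main contrast became 99 (27 higher, 72 lower) with DESeq2, 33 (16 and 17) with no filter on low counts, 61 (18 and 43) in a model of only the 3 groups, 116 (33 and 83) with the 8 controls as 1 group, 338 (149 and 189) with limma-voom and 188 (65 and 123) without replicates 3 and 4 of controls without DT. Against day 1 alone there were 2 (0 lower) and against day 2 alone 6 (4 lower). With the replicate block there were 9 (6 lower), while same-numbered libraries correlated by 0.01 to 0.27 over 12 pairs, 6 of them over 0.1, so the numbers were not taken to pair the mice. Leaving out each library in turn gave 3 to 14 genes, with 2 to 6 higher and 1 to 8 lower. There were 14 without replicate 1 of controls at day 1, 9 without replicate 4 of controls at day 2, 6 and 7 without replicates 1 and 2 of DTRADQ, and 6 without replicate 2 of controls at day 2. Me1, Gm11868 and C920006O11Rik were called in all 12 of these fits, and Dok1 in 5. The 2 genes against day 1 alone became 7 with DESeq2, 16 without the filter, 4 with the 3 groups and 62 with limma-voom. The 6 against day 2 alone became 26, 14, 13 and 107, then 12 with the replicate block and 41 without the 2 control libraries, and 3 to 9 when each library was left out. The cause was not tested. The bias-adjusted fit and DESeq2 size factors in edgeR gave 4 genes in the main contrast, and controls at day 2 against day 1 gave 0 in each alternative run, those that left out 1 library included.

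Uncalled genes near 0 changed sign. Cxcl12 was at 0.02 with limma-voom and 0.01 against day 1 alone, St6gal1 at 0.01 with limma-voom, 0.01 with the muscle covariate and 0.01 against day 1 alone, Lepr at 0.05 with the muscle covariate, Kitl at −0.07 against day 1 alone and Dbp at −0.1 against day 2 alone. Leaving out each library gave −0.11 to 0.09 for Cxcl12, −0.11 to 0.07 for St6gal1, −0.03 to 0.13 for Kitl, −0.1 to 0.31 for Dbp and −0.04 to 0.18 for Lpl. With 4 against 8 libraries and totals of 12.38 to 18.06 M counts, levels under 0.166 to 0.242 CPM were not told from 0, and genes under a few reads per library, such as Me1 in controls, have imprecise changes.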
